A study of Mus musculus with 4 samples.

Results

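The genes described here are 10 genes of the germ line whose promoters are known to carry DNA methylation in somatic cells: Dazl, Sycp1, Sycp3, Stk31, Mael, Tex101, Rpl10l, Ddx4, Taf7l and Asz1. They were picked by name from knowledge of this gene class, with earlier results of these data known. Each was found in the count table by its symbol in GENCODE vM21. This covers 10 of 55421 gene identifiers, or 10 of the 25542 with at least 1 count. All 4 libraries of 3′ tags came from E14 cells, a mouse embryonic stem cell line of 129/Ola background and blastocyst origin. The KO group (n = 2 libraries) is a knockout of the microRNA cluster miR-290 to miR-295, and the WT group (n = 2) is wild type. Both were grown on gelatin in medium with 15% serum and 100 U/ml of LIF, the cytokine that maintains self-renewal. The 2 libraries of a group are described as biological duplicates; whether separate KO clones were used is not stated, and p-values measure only the spread between these libraries.

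Germ cells need proteins that few other cells make, for pairing of chromosomes in meiosis, for silencing of transposons by small RNAs of the piwi class, and for the translation of stored messages. In the embryo the CpG-rich promoters of many of these genes gain DNA methylation around implantation, written by Dnmt3a and Dnmt3b with the cofactor Dnmt3l and copied at replication by Dnmt1 with Uhrf1. Before that, a variant Polycomb complex that holds Pcgf6, Mga, E2f6 and L3mbtl2 represses many of them, and Mga with Max recognises the E-box CACGTG. DNA methylation was not measured in these libraries, and the name of the class refers to what is known of it elsewhere.

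Cells without the cluster held less RNA of 9 of the 10 genes and more of the other, Rpl10l. Dazl, Sycp1, Stk31, Mael and Tex101 fell, Rpl10l rose, Sycp3, Ddx4 and Taf7l did not pass the test, and Asz1 had too few counts to be tested. A gene was called when its Benjamini-Hochberg adjusted p in edgeR's quasi-likelihood test, taken over all 14427 genes tested, was below 0.05. Thus 5 of 9 tested genes were lower and 1 was higher, next to 4.96% of all tested genes called lower and 7.42% called higher. Tex101, among the 5, held 1 and 0 counts in KO and passed the filter on low counts only through WT. It could therefore be called only as lower, and its call adds no support to the count. In 9 of the 10 genes both KO libraries lay below both WT libraries, which 28.8% of all tested genes did, and in 1 both lay above, which 29.2% did. The 9 include Asz1, which was not tested, while these shares cover tested genes only. The median log2 fold change (KO over WT) of the 9 tested genes was -1.13, and that of all tested genes was -0.01. Without KO library 1 only Dazl was still called lower, and without KO library 2 the lower calls were 3 and the higher call of Rpl10l was lost. Levels are given as CPM, the count divided by the library total and multiplied by 1000000. Without Rpl10l, the other 9 genes summed to 63.4 and 68.4 CPM in KO and to 149.1 and 177 in WT. Rpl10l supplied most of the counts of the 10 in every library except WT library 2. With Rpl10l, the sums of the 10 were 361 and 397 in KO and 352 and 302 in WT, so the direction of a summed level turned on that gene.

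**Figure D1:**
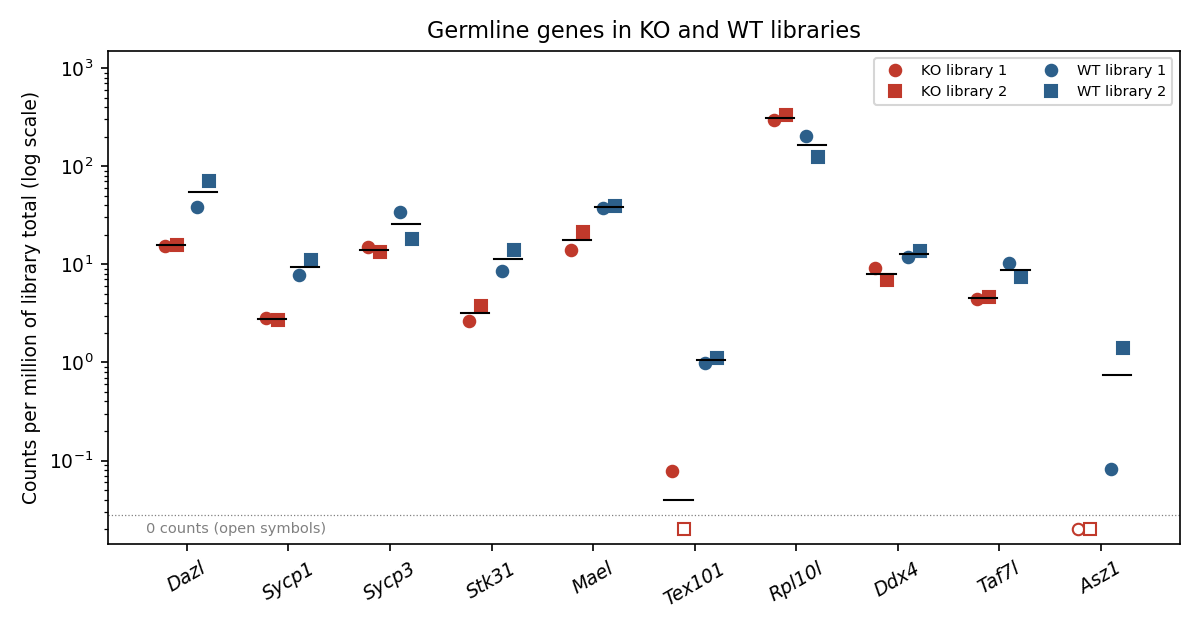
RNA of the 10 germline genes in each library, in CPM on a log axis; circles are libraries 1 and squares libraries 2, red for KO and blue for WT, bars are group means, and open symbols under the dotted line are libraries with 0 counts. The KO symbols lie below the WT symbols in 9 genes and above them in Rpl10l, and the 2 WT libraries lie farthest apart in Asz1.

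The promoters of these genes are shown because CpG density and the E-box are what the class is known for, and the rule that chose the genes did not read them. Each window runs from 250 bases before to 50 after a RefSeq transcription start (GRCm38.p6, on the strand of the gene), and all 10 genes had one. The windows below are those of 4 genes that fell and of the gene that rose, 5′ to 3′, with the E-box CACGTG in capitals.
Dazl promoter: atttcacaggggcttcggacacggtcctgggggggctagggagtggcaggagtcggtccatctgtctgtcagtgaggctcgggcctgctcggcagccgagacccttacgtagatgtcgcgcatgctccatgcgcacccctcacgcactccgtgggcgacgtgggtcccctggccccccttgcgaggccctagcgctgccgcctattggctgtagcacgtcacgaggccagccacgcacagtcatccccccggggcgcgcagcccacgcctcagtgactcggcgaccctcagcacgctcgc
Sycp1 promoter: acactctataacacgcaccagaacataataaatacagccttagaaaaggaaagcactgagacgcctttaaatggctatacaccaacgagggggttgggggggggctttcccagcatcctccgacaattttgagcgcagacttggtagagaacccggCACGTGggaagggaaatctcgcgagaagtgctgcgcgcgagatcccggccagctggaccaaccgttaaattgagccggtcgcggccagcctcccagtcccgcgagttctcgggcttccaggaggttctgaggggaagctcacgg
Stk31 promoter: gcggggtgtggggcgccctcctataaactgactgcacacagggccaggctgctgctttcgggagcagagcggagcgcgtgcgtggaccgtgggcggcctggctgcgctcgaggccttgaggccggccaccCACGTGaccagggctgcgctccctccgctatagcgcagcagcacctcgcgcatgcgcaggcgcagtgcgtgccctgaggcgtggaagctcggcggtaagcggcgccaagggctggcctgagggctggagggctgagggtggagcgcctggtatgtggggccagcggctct
Mael promoter: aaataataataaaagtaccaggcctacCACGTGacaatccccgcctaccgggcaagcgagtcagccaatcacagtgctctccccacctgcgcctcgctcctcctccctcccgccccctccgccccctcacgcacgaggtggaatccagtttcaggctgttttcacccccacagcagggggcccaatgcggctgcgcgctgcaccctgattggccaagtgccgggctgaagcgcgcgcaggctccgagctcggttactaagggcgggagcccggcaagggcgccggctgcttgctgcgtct
Rpl10l promoter: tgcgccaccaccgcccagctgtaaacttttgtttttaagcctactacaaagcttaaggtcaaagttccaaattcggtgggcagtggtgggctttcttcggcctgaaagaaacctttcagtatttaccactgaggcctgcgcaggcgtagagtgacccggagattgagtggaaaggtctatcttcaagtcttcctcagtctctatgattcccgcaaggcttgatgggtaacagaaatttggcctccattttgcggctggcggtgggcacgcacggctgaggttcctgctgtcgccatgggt
The Dazl window is chr17:50293571-50293870 (minus strand), that of Sycp1 chr3:102936051-102936350 (minus), that of Stk31 chr6:49395354-49395653 (plus), that of Mael chr1:166238695-166238994 (minus) and that of Rpl10l chr12:66284352-66284651 (minus). Counted from the transcription start, with negative numbers upstream, the E-box began at -94 in Sycp1, -120 in Stk31 and -223 in Mael, and the Dazl and Rpl10l windows held none.

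CACGTG, which reads the same on both strands, stood in 6 of the 10 windows: besides the 3 printed, in Sycp3 at -64 and -43, in Ddx4 at -29 and in Taf7l at -49. It was not in the windows of Dazl, Tex101, Rpl10l and Asz1. It stood in 7.15% of all 32851 promoter windows in the table and in 9.97% of the 13125 windows of genes tested. The E2F-type word GCGGGAA, searched on both strands, stood in 3 of the 10, those of Sycp3, Rpl10l and Ddx4, against 4.6% of all windows and 8.44% of those of tested genes. Matches of the 2 words did not overlap in these windows, and a match describes letters, not binding. The 10 windows held between 13 (Rpl10l) and 38 (Ddx4) CpG dinucleotides, with a median of 20 and a median observed over expected CpG ratio of 0.782. For all windows the medians were 7 and 0.384, and for those of tested genes they were 20 and 0.747, so the CpG content of these promoters was close to that of expressed genes in general. All 6 genes with the E-box had both KO libraries below both WT libraries, which 28.8% of all tested genes did. Of these 6, Sycp3, Ddx4 and Taf7l were not called. Dazl, Tex101 and Asz1, without an E-box, had the same order, Asz1 on 1 and 14 counts in WT. Rpl10l, which rose, has no E-box. The 1222 tested genes with CACGTG in a window had a median log2 fold change of -0.02, and the 9035 without had 0.02. The part of the E-box in the changes was not tested. The RefSeq start used for Tex101 lies 4625 bases inside the start of the GENCODE gene, and those of the other 9 lie within 165 bases of theirs.

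**Figure D2:**
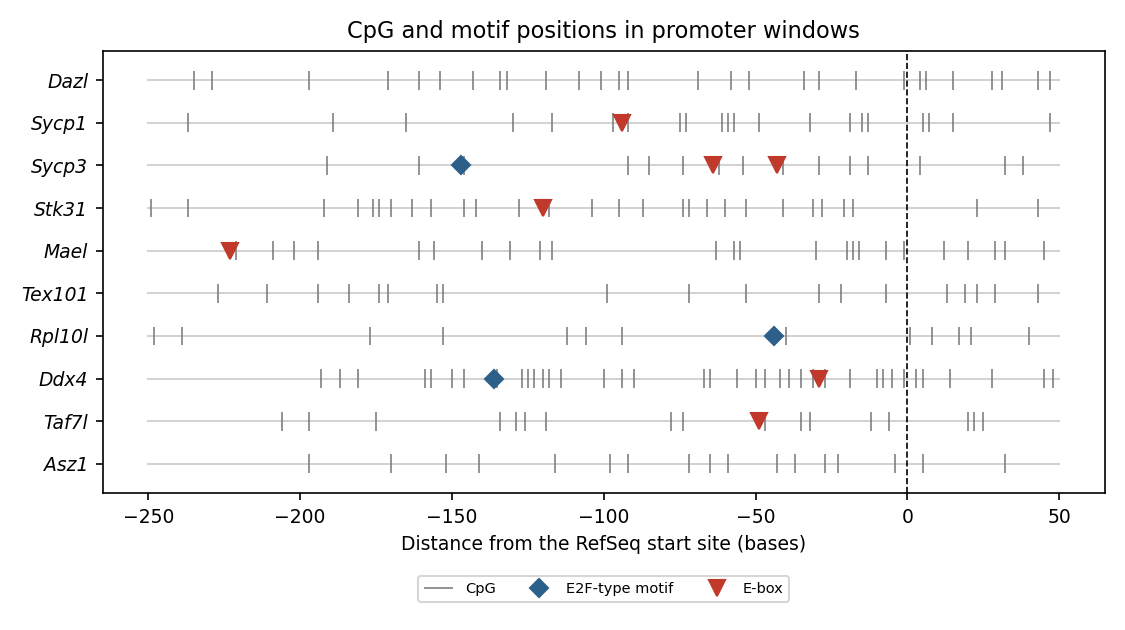
Promoter windows of the 10 genes, drawn by distance in bases from the RefSeq transcription start, with CpG dinucleotides and the words CACGTG and GCGGGAA marked. CACGTG stands in 6 windows and GCGGGAA in 3, and CpG dinucleotides run through all 10, from 13 in Rpl10l to 38 in Ddx4.

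The deleted microRNAs are shown for their seed (bases 2 to 8, in capitals), the stretch that pairs with target messages. The 3 mature forms below, from RefSeq (GRCm38.p6, chromosome 7, plus strand), share the seed AAGUGCU.
miR-291a-3p: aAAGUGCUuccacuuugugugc
miR-294-3p: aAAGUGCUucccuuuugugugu
miR-295-3p: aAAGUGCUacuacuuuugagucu
They lie at chr7:3218968-3218989, chr7:3220691-3220712 and chr7:3220815-3220837. The plus-strand microRNA genes of the cluster held 0 counts in each KO library, against 88 and 39 in WT libraries 1 and 2, and Mir295 alone held 80 and 22 of these. On the minus strand Mir290b held 4 counts in KO library 1 and none in the others. GCACTT, the DNA word that pairs with seed bases 2 to 7, stood in the longest annotated 3′ UTR of 0 of the 10 germline genes. It stood in 29.8% of 21173 genes with an annotated 3′ UTR and in 34.8% of the 12495 tested ones. The 3′ UTRs of the 10 genes were short, with a median of 340.5 bases against 1084 for all genes and 1331 for tested genes, and a short UTR has less room for any word.

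Of the 2 genes for RNA-binding proteins, Dazl fell and Ddx4 did not pass. Dazl (ENSMUSG00000010592, chr17:50279395-50293636, minus strand) encodes a protein that binds messages in germ cells and promotes their translation. It held 15.3 and 15.8 CPM in KO libraries 1 and 2 and 38.0 and 70.6 CPM in WT libraries 1 and 2. The KO libraries were almost equal, the WT libraries stood 1.86-fold apart, and the groups did not overlap. The group means in CPM (± SD, n = 2 each) were 15.6 ± 0.344 for KO and 54.3 ± 23.1 for WT, and the level in WT was 3.49 times that in KO. The log2 fold change was -1.79 (SE 0.28, edgeR adjusted p = 0.00497). With each library left out in turn it lay between -2.16 and -1.31, and the call held in all 4 of these fits. In a bulk library a lower level can come from fewer cells with the RNA or from less of it in each cell, and these cannot be told apart here. Ddx4 (ENSMUSG00000021758, chr13:112598333-112652475, minus strand), the Vasa helicase of germ granules, held 9.12 and 6.97 CPM in KO and 11.8 and 13.6 in WT. Its KO libraries also lay below its WT libraries, but by little more than the replicates differed. Ddx4 had a log2 fold change of -0.66 (SE 0.29, edgeR adjusted p = 0.175), between -0.86 and -0.47 with 1 library left out, and it passed in none of 11 alternative settings.

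Both synaptonemal complex genes read lower, and Sycp1 passed the test. Sycp1 (ENSMUSG00000027855, chr3:102818499-102936100, minus strand) encodes the transverse filament that zips paired chromosomes together in meiosis. It held 36 and 32 counts in KO and 95 and 109 in WT, or 2.83 and 2.72 CPM against 7.81 and 10.98. The groups were well apart, and the KO pair was again tight. The log2 fold change of Sycp1 was -1.75 (SE 0.36, edgeR adjusted p = 0.0163). It was -1.77 without KO library 1 (edgeR adjusted p = 0.0544) and -1.72 without KO library 2 (adjusted p = 0.0623), so the size stayed and the call was lost. A pseudogene, Sycp1-ps1, named here after its values were seen, matches 176 bases among the last 500 of the transcript at 92.0% identity and held at most 4 counts in any library.

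Sycp3 (ENSMUSG00000020059, chr10:88459569-88473236, plus strand) encodes a protein of the lateral element, the axis along each meiotic chromosome. It held 14.9 and 13.3 CPM in KO and 33.9 and 17.9 in WT. WT library 1 was 1.89-fold above WT library 2, which stood close to the KO libraries. Sycp3 had a log2 fold change of -0.88 (SE 0.31, edgeR adjusted p = 0.0974). It was -1.28 without WT library 2 (edgeR adjusted p = 0.00141) and -0.33 without WT library 1, so its size rested on which WT library was kept. The end of Sycp3 overlaps an exon of Chpt1 on the opposite strand, a gene of phospholipid synthesis named after its values were seen. Chpt1 held 25.9 and 18.1 CPM in KO and 9.70 and 11.4 in WT, with a log2 fold change of 1.07 (SE 0.27, edgeR adjusted p = 0.033, and 0.79 with an adjusted p of 0.286 without KO library 1). The strand setting of the authors' counting is not given in the sources used here, so reads of Sycp3 and Chpt1 may not have been told apart, and the part of this overlap in either value was not tested.

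Among the genes of the germ granule and of transposon control, Stk31 and Mael fell and Asz1 was near the limit of detection. Stk31 (ENSMUSG00000023403, chr6:49395604-49469501, plus strand) encodes a kinase-like protein with a tudor domain made in germ cells. It held 34 and 44 counts in KO and 105 and 140 in WT, or 2.67 and 3.74 CPM against 8.63 and 14.1. Every WT library lay above every KO library, and WT library 2 was the highest. For Stk31 this gave a log2 fold change of -1.82 (SE 0.38, edgeR adjusted p = 0.0166), and without KO library 1 it was -1.58 (adjusted p = 0.0696). Mael (ENSMUSG00000040629, chr1:166201201-166238747, minus strand) encodes Maelstrom, needed for silencing of transposons in the male germ line. It held 13.99 and 21.2 CPM in KO and 37.7 and 39.3 in WT. Here the WT libraries were the tight pair and KO library 2 the higher of the KO libraries. The log2 fold change of Mael was -1.13 (SE 0.24, edgeR adjusted p = 0.0183), and it was -0.85 without KO library 1 (adjusted p = 0.155).

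Asz1 (ENSMUSG00000010796, chr6:18050964-18109061, minus strand) encodes a mitochondrial protein of the piwi RNA pathway. Both KO libraries held 0 counts of it, WT library 1 held 1 and WT library 2 held 14. Almost all of its RNA thus came from WT library 2, and it did not pass the filter on low counts. Against a floor of 3 counts over the KO group, 0.122 CPM, the WT group level of 0.679 CPM put Asz1 at least 5.54-fold lower in KO. This bound rests on WT library 2: WT library 1 alone, at 0.0822 CPM, lies below the floor and gives none. Without the filter edgeR gave it an adjusted p of 0.0193, and without KO library 1 or 2, when it passed the filter, 0.272 or 0.249.

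Tex101, a surface protein of male germ cells with a GPI anchor, was the gene with the largest ratio and the fewest counts among those tested. Tex101 (ENSMUSG00000062773, chr7:24668007-24676675, minus strand) held 1 and 0 counts in KO and 12 and 11 in WT. The WT libraries were alike, and RNA was close to undetected in KO. Summed over the groups, 1 count against 23 gave a level 25.5-fold lower in KO, with a 95% counting interval of 4.14 to 1050.5. The edgeR adjusted p was 0.0251, and the fitted fold change of so low a gene depends on the prior count. The call was lost without KO library 1 (edgeR adjusted p = 0.114), without KO library 2 (0.222) and with the DESeq2 test (0.106), and without either WT library Tex101 no longer passed the filter.

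Taf7l (ENSMUSG00000009596, chrX:134460118-134476490, minus strand) encodes a relative of the general transcription factor subunit Taf7 used in spermatogenesis, and it is the X-linked gene of the 10. It held 4.48 and 4.67 CPM in KO and 10.2 and 7.46 in WT. The KO libraries were nearly equal and both lay below the WT libraries. Taf7l had a log2 fold change of -0.95 (SE 0.34, edgeR adjusted p = 0.103). It was -1.17 without WT library 2 (edgeR adjusted p = 0.0442) and -0.69 without WT library 1.

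**Figure D3:**
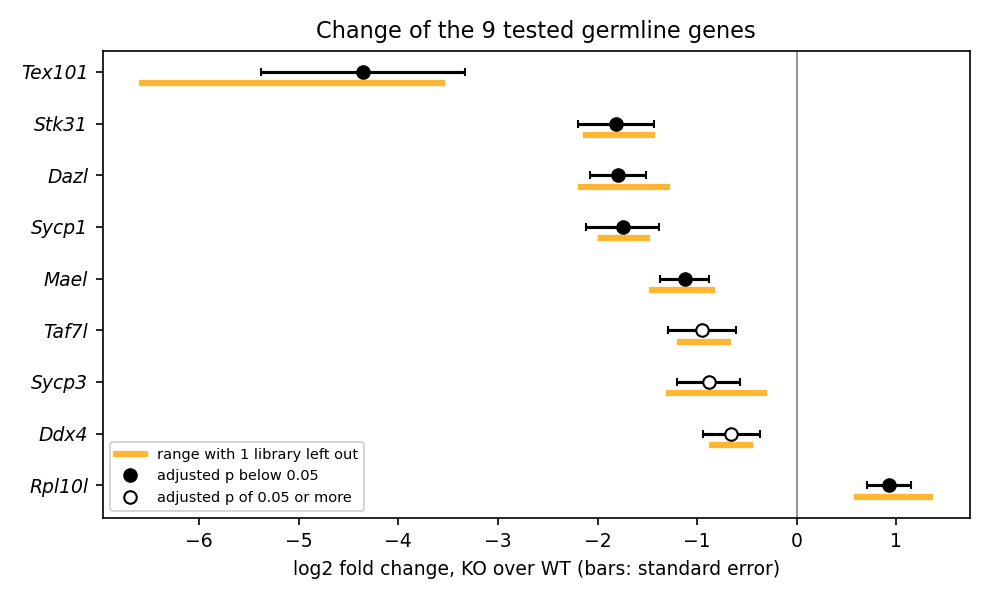
Log2 fold change (KO over WT) of the 9 tested germline genes; bars are standard errors, orange lines the range over fits with 1 library left out, and filled points an adjusted p below 0.05 in edgeR. Of the 9 points, 8 lie left of zero and Rpl10l lies right of it at 0.93, and no orange line crosses zero.

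Rpl10l moved the other way. This gene without introns (ENSMUSG00000060499, chr12:66283379-66284401, minus strand) is an autosomal copy of the X-linked ribosomal protein gene Rpl10, and in the testis its product stands in for Rpl10 when the X chromosome is silent in meiosis. It held 297 and 329 CPM in KO and 203 and 125 in WT, the highest level of the 10 in tag counts, which are not scaled to transcript length. Both KO libraries lay above both WT libraries, and the WT pair was the wider one. Mean levels in CPM (± SD, n = 2 each) were 313 ± 22.5 for KO and 164 ± 54.9 for WT, 1.91 times as much in KO. The log2 fold change of Rpl10l was 0.93 (SE 0.22, edgeR adjusted p = 0.0265), and between 0.61 and 1.34 with 1 library left out. It was 0.86 without KO library 2 (edgeR adjusted p = 0.0686). RNA of Rpl10l was thus abundant in wild-type stem cells, and the methylation of its promoter in these cells was not measured.

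Reads of Rpl10l could be shared with copies of it. Of other genes, 14 matched the last 500 bases of its transcript over at least 75 bases at 85% identity or more. The best alignments of the best-scoring of these genes lay within the first 172 of those bases and not at the transcript's end. Where the remaining matches lay was not examined. Rpl10 itself, named after its values were seen, matched at 88.3% and held 161 and 130.3 CPM in KO and 157 and 125 in WT. Its groups overlapped, with a log2 fold change of 0.05 (SE 0.18, edgeR adjusted p = 0.899). The closest copy, Gm14460, matched at 98.8% and held 0 counts in every library. Rpl10-ps3, named after its values were seen, matched at 88.3% and held 178 and 185 counts in KO and 241 and 231 in WT. Of all other tested genes, the 3 nearest to Rpl10l over the 4 libraries, by Euclidean distance of log2 CPM, were Hmces (0.351), Nsd1 (0.391) and Nr0b1 (0.431). Hmces, for example, held 373 and 333 CPM in KO and 221 and 122 in WT.

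The same question was put to 44 other germline genes of the piwi pathway, of meiosis and of the testis. This list was drawn up by name with earlier results of these data known, so it is not an independent repeat. Of 36 tested, 10 were lower (4.96% of all tested genes were), 3 were higher (7.42% of all tested genes were, so this count is near the background) and 23 did not pass, with a median log2 fold change of -0.48. Tex15, needed for transposon silencing and meiosis in male germ cells, held 5.11 and 4.16 CPM in KO and 18.9 and 30.02 in WT. Hormad2, a protein of the meiotic chromosome axis, held 1.10 and 1.44 CPM in KO and 6.41 and 10.9 in WT. Piwil4, the nuclear piwi protein, held 0.471 and 0.680 CPM in KO and 4.52 and 4.53 in WT. In these 3 genes the groups stood far apart. Piwil4, and also Piwil1, Wfdc15a, Sycp2 and Syce3 among the 10 lower genes, passed the filter on low counts only through their WT libraries. They could therefore be called only as lower. Piwil1, Wfdc15a, Sycp2 and Syce3 were named after their values were seen. The log2 fold changes were -2.39 for Tex15 (SE 0.31, edgeR adjusted p = 0.00201), -2.75 for Hormad2 (SE 0.45, adjusted p = 0.00606) and -2.96 for Piwil4 (SE 0.52, adjusted p = 0.00874), and each call held in all 4 fits with 1 library left out. Leaving out KO library 1 reduced the 10 lower genes to 4, and leaving out WT library 2 to 6.

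The 3 called higher, a share near that over all genes, were Tdrd12, D1Pas1 and Tex14, of which D1Pas1 and Tex14 were named after their values were seen. Tdrd12, a tudor domain protein of the piwi pathway, held 72.8 and 42.0 CPM in KO and 14.1 and 12.7 in WT. Its log2 fold change was 2.10 (SE 0.28, edgeR adjusted p = 0.0022), and the call held in all 4 fits with 1 library left out. D1Pas1, an autosomal intronless relative of the helicase gene Ddx3x and so a testis copy like Rpl10l, rose by 1.89 on the log2 scale (SE 0.41, edgeR adjusted p = 0.0185). Tex14, a protein of the bridges between germ cells, rose by 0.85 (SE 0.19, edgeR adjusted p = 0.0206), and its call was lost without KO library 1 (0.80, adjusted p = 0.156) or KO library 2 (0.91, adjusted p = 0.0936).

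The most abundant of the 44 did not pass. Tex19.1, known in the placenta and germ line for transposon control, held 162 and 178 CPM in KO and 164 and 125 in WT. The cohesin subunit gene Stag3 held 42.0 and 63.4 CPM in KO and 62.9 and 119 in WT, with a log2 fold change of -0.78 (-1.16 with an edgeR adjusted p of 0.00231 without WT library 1, and -0.28 without WT library 2). Sohlh2, a bHLH factor of spermatogonia and oocytes, had 0.10, and its sign turned on the WT library left out, with -0.31 without library 1 and 0.66 without library 2 (edgeR adjusted p = 0.0337). Promoter windows were found for 36 of the 44, and 11 of these (30.6%) held CACGTG, next to 6 of 10 in the genes described first.

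**Figure D4:**
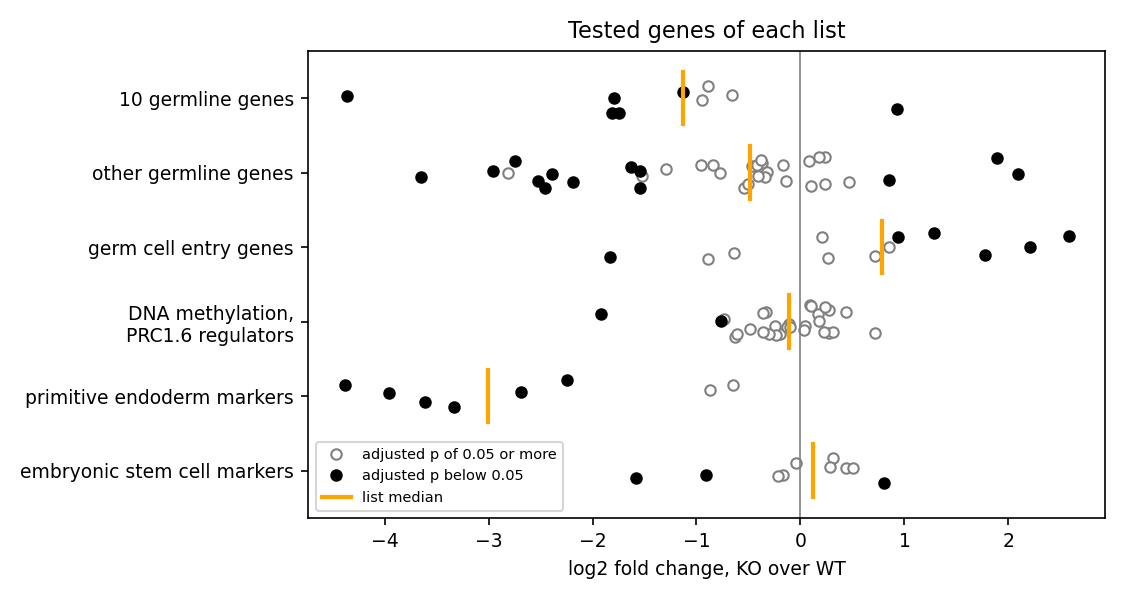
Log2 fold change (KO over WT) of each tested gene of 6 lists, from the 10 germline genes at the top to the embryonic stem cell markers; each point is 1 gene, filled where edgeR's adjusted p is below 0.05, and orange bars are list medians. From top to bottom the medians lie at -1.13, -0.48, 0.78, -0.11, -3.01 and 0.12.

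Among genes that write, copy, remove or read the silent state, the cofactor Dnmt3l and the enzyme Dnmt3b fell and the others did not pass the test. Of 29 regulators, all tested, 2 were lower (4.96% of all tested genes were, so the count is near the background) and 27 did not pass, with a median log2 fold change of -0.11. Dnmt3l, which stimulates the writing enzymes, held 65.5 and 65.3 CPM in KO and 273 and 220.3 in WT. The KO libraries were nearly equal and far below both WT libraries. The log2 fold change of Dnmt3l was -1.92 (SE 0.17, edgeR adjusted p = 0.000385), and the call held in all 4 fits with 1 library left out. Dnmt3b held 75.7 and 63.5 CPM in KO and 135 and 101 in WT, with a log2 fold change of -0.76 (SE 0.19, edgeR adjusted p = 0.0348). Leaving out KO library 1 (-0.89, edgeR adjusted p = 0.0800), KO library 2 (-0.64, adjusted p = 0.237) or WT library 1 (-0.52, adjusted p = 0.0680) ended the call of Dnmt3b.

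The other enzymes and the repressor complex did not pass. Dnmt1, the copying enzyme, held 133 and 131 CPM in KO and 108 and 112 in WT (log2 fold change 0.27), and its partner Uhrf1 had 0.09. Dnmt3a had -0.20, but WT library 1 held 119 CPM and WT library 2 held 64.9, and the change was 0.33 without the first and -0.58 without the second (edgeR adjusted p = 0.0255). Of the complex, Pcgf6 had 0.17, E2f6 -0.33 and Mga 0.04. L3mbtl2, named here after its values were seen, had -0.63 (SE 0.23, edgeR adjusted p = 0.108). Both KO libraries of L3mbtl2 lay below both WT libraries, which 28.8% of all tested genes did. The change of L3mbtl2 was -0.31 without WT library 1 and -0.90 without WT library 2. Trim28, a corepressor of transposons and the most abundant of the list, had -0.36, the histone methylation adaptor Wdr5 had -0.23 (0.02 without WT library 1, and -0.45 with an edgeR adjusted p of 0.0460 without WT library 2) and Rbl2, a pocket protein and literature target of the cluster, had 0.24. Without WT library 2, 7 of the regulators were lower, and without any other library 1 was. Dnmt3l, Dnmt3b and 5 of the germline genes thus fell in the same libraries, and the part of the former in the latter was not tested.

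**Figure D5:**
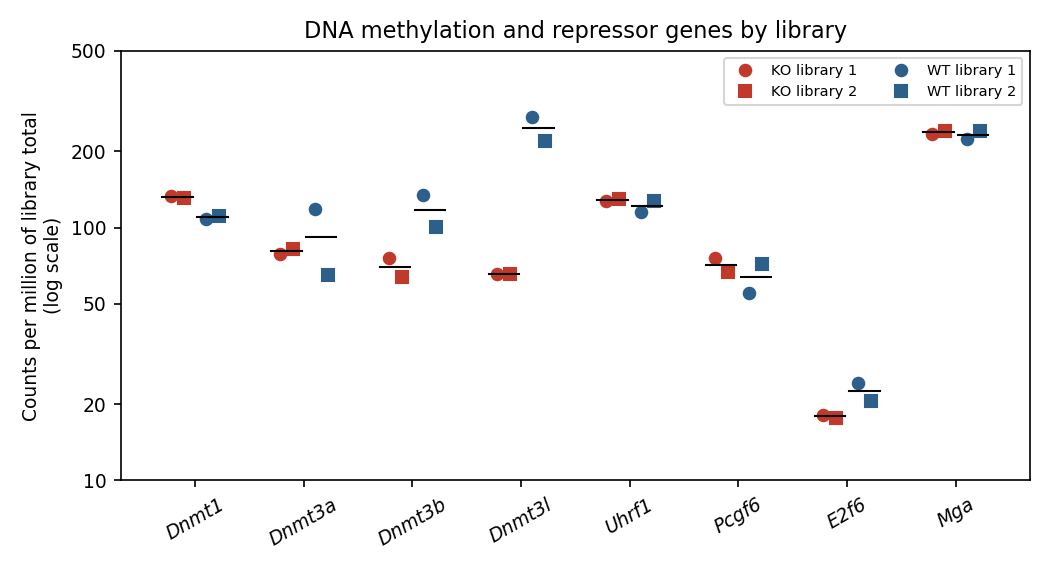
Levels of 8 genes of DNA methylation and of the repressor complex in each library, in CPM on a log axis; symbols and colours give library and group, and bars are group means. Dnmt3l stands at 65.5 and 65.3 in KO against 273 and 220.3 in WT, and the KO and WT symbols of Dnmt3a, Pcgf6 and Mga overlap.

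Among genes of entry into the germ line and meiosis, Tfap2c, Prdm1, Dmrt1, Stra8 and Nanos3 rose and Meioc fell. Of 18 listed, 12 were tested: 5 were higher (7.42% of all tested genes were), 1 was lower (4.96% of all tested genes were) and 6 did not pass, with a median of 0.78. Nanos3, among the 5 higher, passed the filter on low counts only through KO, so it could be called only as higher. Over all 18, both KO libraries lay above both WT libraries in 7 and below them in 5. Of all tested genes, 29.2% lay above and 28.8% below in this way, so the count below is near the background. These shares cover tested genes only, while the 18 include untested genes with few counts. Tfap2c, a factor of primordial germ cells and trophoblast, held 379 and 229.8 CPM in KO and 89.7 and 88.1 in WT. Prdm1, which represses somatic genes in germ cell precursors, held 65.3 and 46.2 CPM in KO and 8.47 and 16.02 in WT. Dmrt1, a regulator of testis and germ cells, held 129 and 110.2 CPM in KO and 37.5 and 61.3 in WT. In all 3 both KO libraries lay above both WT libraries. Tfap2c rose by 1.78 (SE 0.22, edgeR adjusted p = 0.00178), Prdm1 by 2.20 (SE 0.31, adjusted p = 0.00275) and Dmrt1 by 1.28 (SE 0.23, adjusted p = 0.00852), each called in all 4 fits with 1 library left out.

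Stra8, induced by retinoic acid at the onset of meiosis, rose by 0.93 (SE 0.18, edgeR adjusted p = 0.0133), and by 0.83 with an adjusted p of 0.0806 without KO library 2. Nanos3, an RNA-binding protein of primordial germ cells named after its values were seen, rose by 2.58 (SE 0.54, edgeR adjusted p = 0.0171), and by 2.06 with an adjusted p of 0.0881 without KO library 1. The receptor gene Kit had 0.72, and passed without WT library 2 (1.13, edgeR adjusted p = 0.000840). The gene that fell was Meioc, which prolongs meiotic prophase, with 7.15 and 4.42 CPM in KO and 17.5 and 23.9 in WT. Its log2 fold change was -1.83 (SE 0.32, edgeR adjusted p = 0.00815), and the call held in all 4 fits with 1 library left out.

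Markers of cells that such a culture could hold moved in part with the germline genes. Beside the counts that follow, 4.96% of all tested genes were lower and 7.42% higher. Of 8 primitive endoderm markers, 6 were lower in KO and the other 2 did not pass, and their sums were 25.5 and 23.5 CPM in KO and 165.2 and 182 in WT. Dab2, an endocytic adaptor, led them with a log2 fold change of -4.38 (SE 0.33, edgeR adjusted p = 0.000192). Pdgfra and Sox17, among the 6 and named after their values were seen, passed the filter on low counts only through WT. Those 2 could therefore be called only as lower. Of 7 fibroblast markers, Col3a1, Dcn and Postn were at 0 in all libraries, and the 2 tested, Col1a1 and Thy1, were lower, with list sums of 10.3 and 20.7 CPM in KO and 28.9 and 51.9 in WT. Thy1 made up nearly all of these sums, with 9.82 and 20.3 CPM in KO and 26.8 and 50.2 in WT, and Col1a2 and Lum held at most 4 counts in any library. Col1a1 passed the filter on low counts only through WT, so it could be called only as lower. Of 9 genes of the rare 2-cell-like state, Zscan4d and Gm8300 were higher among 4 tested, and the sums were 7.46 and 14.9 CPM in KO and 3.54 and 2.42 in WT. Zscan4d and Gm8300 passed the filter on low counts only through KO, so they could be called only as higher. With 1 library left out, Col1a1 was called in 0 of 4 fits (edgeR adjusted p between 0.120 and 0.306), Gm8300 in 1, Thy1 in 2 and Zscan4d in 3. The part of these cells in the germline result was not tested.

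The embryonic stem cell markers summed to 3845 and 3946 CPM in KO and 3822 and 4221 in WT, with all 10 detected in every library, as the label of the cells says. Of these, Klf4 (-1.59) and Utf1 (-0.91) were lower and Fgf4 (0.80) was higher, next to 4.96% and 7.42% of all tested genes, Klf4 in all 4 fits with 1 library left out, Utf1 not without KO library 1 and Fgf4 not without KO library 2. Spermatid genes were near 0: of 16, the 6 genes Prm1, Prm2, Prm3, Acrv1, Odf1 and Akap4 held no count in any library. Of the 2 tested, neither called, Odf2, a gene also used at centrosomes, had 115 to 137 CPM and overlapping groups, and Ldhc, a lactate dehydrogenase of the testis, held 10 and 13 counts in KO and 24 and 47 in WT. Libraries held between 9925557 and 12726123 counts, so that 3 counts stood for 0.236 to 0.302 CPM per library, and intervals and floors cover counting error only.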

How the data were processed

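Poly(A) RNA of 2 KO and 2 WT libraries was made into 3′ tag libraries (QuantSeq FWD) from 500 ng of RNA each, per the labels' protocols. Raw counts per gene, whole numbers without normalization, are what the authors deposited. The submitters' processing notes name Trim Galore and GRCm38. Not given in the sources used here are the aligner, the counter, its strand setting and its annotation. Of 55421 identifiers, 55240 were in GENCODE vM21, and the other 181 held 0.0025% of counts. Groups came from the sample titles.

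The 10 genes and all lists were chosen with earlier results of these data known. KO was compared with WT in edgeR 4.0.16 (R 4.3.3; TMM, filterByExpr, quasi-likelihood F test, two-sided, Benjamini-Hochberg over the 14427 genes tested, threshold 0.05), and list members were read from that fit. The common biological coefficient of variation (BCV) was 0.198. Standard errors were taken as |log2 fold change|/√F. CPM is per library total, without TMM. A gene with almost no counts in one group passed filterByExpr only through the other group, and so could be called only as higher in that other group. Chi-square per degree of freedom between the counts of 2 libraries was 11.35 (KO pair), 18.85 (WT pair) and 37.15 to 45.4 (across groups), so no library repeats another.

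Named genes were the 10, up to 4 called members with the smallest p and up to 3 with the highest mean CPM of each other list, the 3 genes nearest to the most abundant of the 10 by Euclidean distance over the 4 libraries (log2 CPM, prior count 2), the cluster's genes, and Dnmt1, Dnmt3a, Dnmt3b, Dnmt3l, Uhrf1, Pcgf6, E2f6, Mga and Rbl2; exceptions are stated where they stand. Similar transcripts were found with BLAST 2.17.0 on the last 500 bases, and promoter and microRNA sequences came from RefSeq (GRCm38.p6). For Stk31, which has 2 windows in that table, the one at the GENCODE start was used. Alternatives were DESeq2 1.42.0 (size factors, Wald test), no TMM, no filter, a filter at a mean CPM of 1, a replicate block, equal depth, and each library left out. In counts simulated for KO against WT (14380 genes tested) recovery was 1.49% for changes of 1.5-fold, 41.8% for 2-fold and 89.4% for 4-fold, with 0.0141% of unchanged genes called.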

Additional observations from a re-analysis of the deposited data

How the results depend on the processing

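Each of the 9 tested germline genes kept its direction in every alternative that tested it, and Dazl also kept its call in all 11. DESeq2 size factors, library totals without TMM, the DESeq2 test, a mean CPM of at least 1 and equal depth left the counts of calls for all genes, the 10 genes, the other germline genes and the regulators within 1.5 times of the main values. Without the filter, with 25542 genes tested, 1193 genes were lower against 715, Sycp3 passed (-0.88, edgeR adjusted p = 0.0134), and Asz1, now tested, passed (adjusted p = 0.0193).

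The replicate numbers do not pair the samples by any label, and the deviations of same-numbered libraries had a correlation of -0.07 over 14427 genes. With the number as a replicate block, 638 genes were higher and 370 lower over all genes, 0 of the 10 germline genes were higher and 4 lower, 1 of the other germline genes was higher and 6 lower, and Rpl10l (0.97, edgeR adjusted p = 0.0530) and Tex101 (adjusted p = 0.0691) did not pass. The block fit called 0 of the 10 higher, against 1 in the DESeq2 test, and 3772 genes had an unadjusted p below 0.05 in it.

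With 1 library left out, all genes called higher ranged from 556 to 1477 and all called lower from 285 to 1011. Of the 10 germline genes, 1 to 6 were lower, with 1 left (Dazl) without KO library 1 and 3 without KO library 2, and 0 to 1 were higher. Of the other germline genes 4 to 15 were lower and 2 to 4 higher, and of the regulators 1 to 7 were lower. In these fits the lone library of a group is assumed to vary like the other group, and fewer residual degrees of freedom remain. The low power against 2-fold changes at this sample size limits what the calls that were not made can show.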
